A study of Oryctolagus cuniculus with 6 samples.

Results

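The genes described here are 36 genes of phagocytosis and the lysosome that macrophages use to take up and digest debris, chosen by name, with earlier results of these data known. They were followed in injured facial nerve of wild type male Japanese white rabbits aged 3 to 4 months, in 3 libraries of the FNI group and 3 of the FNI+I-125 group, 1 library per rabbit. In both groups the main trunk of the facial nerve was cut, and the nerve was harvested on day 14. In the FNI+I-125 group a seed holding radioactive iodine (I-125, 0.8 mCi) was also placed near the cut nerve. Both groups therefore carry the transection, and the comparison asks what differed in cut nerve when a seed was present. Uninjured nerve was not analysed here, so no value below says what the cut itself did.

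Of the 36 genes, 35 were found among the 17396 genes listed in the files. Of these, 34 were found by their symbol, and TREM2 was found through its RefSeq gene identifier. CTSL could not be matched. MARCO was too low to be tested, with counts of 3, 4 and 1 without a seed and 7, 1 and 17 with one. This left 34 genes, and all statements on fold changes concern these 34 among 14003 genes tested.

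After a nerve is cut, Schwann cells and invading macrophages break down the myelin of the degenerating stump, and macrophages carry much of the lipid-rich debris to their lysosomes. The lysosome is acidified by a proton pump, the V-ATPase, and it holds proteases, glycosidases and lipases that are delivered from the Golgi. Macrophages that have taken up much lipid typically express GPNMB, TREM2, SPP1 and FABP5, while CD163 and MRC1 are receptors of tissue-resident macrophages. Most lysosomal genes are not particular to macrophages and are also expressed in Schwann cells, fibroblasts and endothelial cells.

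The libraries had total counts of 16031151 to 16798012, and levels are given as CPM, which are counts divided by the library size as adjusted by TMM, a normalization for library composition. Since the tissue was sequenced whole, more cells of a type and more RNA per cell cannot be told apart. A list of 15 general macrophage genes served as a check of the cell type. Of the 13 that were listed and tested, all 13 were higher with the seed, and their median log2 fold change was 1.88. Their summed level was 210.2 to 889.8 CPM in the FNI group and 1339.9 to 2374 CPM in the FNI+I-125 group. The 3 genes of this list with the highest mean CPM were MPEG1, C1QC and CD14. The lysosomal pore protein gene MPEG1 measured 138, 220.2 and 41.0 CPM in FNI replicates 1, 2 and 3, against 355, 884 and 493 CPM in FNI+I-125 replicates 1, 2 and 3. CD14, a co-receptor for bacterial lipopolysaccharide, stood at 82.3, 106 and 15.4 CPM in the FNI group and at 216, 266 and 153 CPM in the FNI+I-125 group. C1QC, a chain of complement C1q, overlapped between the groups, with a log2 fold change of 0.37 (SE 0.42). ADGRE1, another gene of this list, was near 0 in every library, between 0.117 and 2.88 CPM.

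Other cell types also differed between the libraries. The summed level of 10 Schwann cell and myelin genes was 3933 to 39936 CPM in the FNI group, with the top value in replicate 3. With the seed it was 724 to 3811 CPM, so the sums lay apart by a narrow margin. All 10 genes were lower on average with the seed, and their median log2 fold change was -3.1. In 5 of the 10 the groups lay apart downwards, beside 12.3% of all genes. The 6 skeletal muscle genes tested summed to 4639 and 3858 CPM in FNI+I-125 replicates 1 and 2 and to 9.28 to 68.5 CPM in the other 4. Neutrophil genes summed to 20.7 to 220.1 CPM in the FNI group and 648 to 1737 CPM in the FNI+I-125 group. The highest sum was in FNI+I-125 replicate 1. Of the 9 neutrophil genes tested, only 2 had groups that lay apart upwards, beside 14.8% of all genes. Their mean log2(CPM + 1) overlapped, with 4.14 in FNI replicate 1 and 3.43 in FNI+I-125 replicate 2. The 7 salivary gland genes tested reached 50167 CPM in FNI replicate 2 and 3116 CPM in FNI replicate 1, against 66.1 to 711 CPM elsewhere. Adipocyte genes summed to 1349 to 3142 CPM in the FNI group and 910.4 to 1198 CPM in the FNI+I-125 group. Of the 6 adipocyte genes tested, only 1 had groups that lay apart downwards, beside 12.3% of all genes. The sums of lymphocyte, fibroblast and endothelial genes overlapped between the groups. Of the 7 endothelial genes tested, 6 were lower on average with the seed and 1 was higher. In 3 of the 7 the groups lay apart downwards, beside 12.3% of all genes. The part of these transcripts in the results below was not tested.

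Nearly all of the phagocytic and lysosomal genes were higher on average in the FNI+I-125 group, 33 of 34, with NPC1 the exception. Their median log2 fold change was 0.83, with a range of -0.38 to 3.2, beside a median of 0.013 over all genes tested. None was a DEG at an adjusted p under 0.05 and an absolute log2 fold change of at least 1.5. By that rule edgeR's quasi-likelihood test called 0.0% of all genes tested, and the adjusted p of the 34 genes ran from 0.28 to 0.831. At an unadjusted p under 0.05, 9 of the 34 were higher and 0 lower, where 9.23% of all genes were higher and 7.73% lower. These 9 were MSR1, TYROBP, CTSB, GRN, CD68, ATP6V1A, ATP6V1B2, ATP6V0D1 and ATP6AP1. DESeq2 called 1 of the 34 at an adjusted p under 0.05, MSR1, beside 3.83% of all genes that it called higher, and limma-voom called 0. The count of 9 became 1 without FNI+I-125 replicate 2 and 4 without FNI replicate 1, FNI replicate 3 or FNI+I-125 replicate 3. It was 14 without FNI+I-125 replicate 1. With 1 library left out, 6.0% to 8.2% of all genes were higher at this threshold. Without FNI+I-125 replicate 2 the log2 fold changes of 20 of the 34 genes were over 1.5 times smaller, without FNI replicate 3 those of 11, and without any other single library those of at most 2.

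In 13 of the 34 genes every FNI+I-125 library lay above every FNI library, and in 0 genes the reverse held, while over all genes tested 14.8% lay apart upwards and 12.3% downwards. With 3 libraries against 3, the exact permutation test of such a gene gives 0.1, the smallest p that it can give. The 13 were TYROBP, MSR1, CSF1R, CTSB, CTSZ, GLA, GRN, CD68, LAMP2 and the 4 V-ATPase genes. Without FNI+I-125 replicate 1 the count was 26, and without any other single library it was 12 to 18. Fewer libraries make a separation easier, and the share over all genes with a library left out is not given here. Of the 34 genes, 27 had their lowest level in FNI replicate 3, which was so for 31.6% of all genes, and 29 had their highest level in FNI+I-125 replicate 2, which was so for 16.7% of all genes. FNI replicate 3 was also the library with the lowest macrophage list and the highest myelin list. FNI replicate 3 and FNI+I-125 replicate 2 were also both left out, a choice made after seeing the data. The median log2 fold change of the 34 genes was then 0.31. At an unadjusted p under 0.05, 3 of them were higher, beside 6.09% of all genes.

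**Figure D1:**
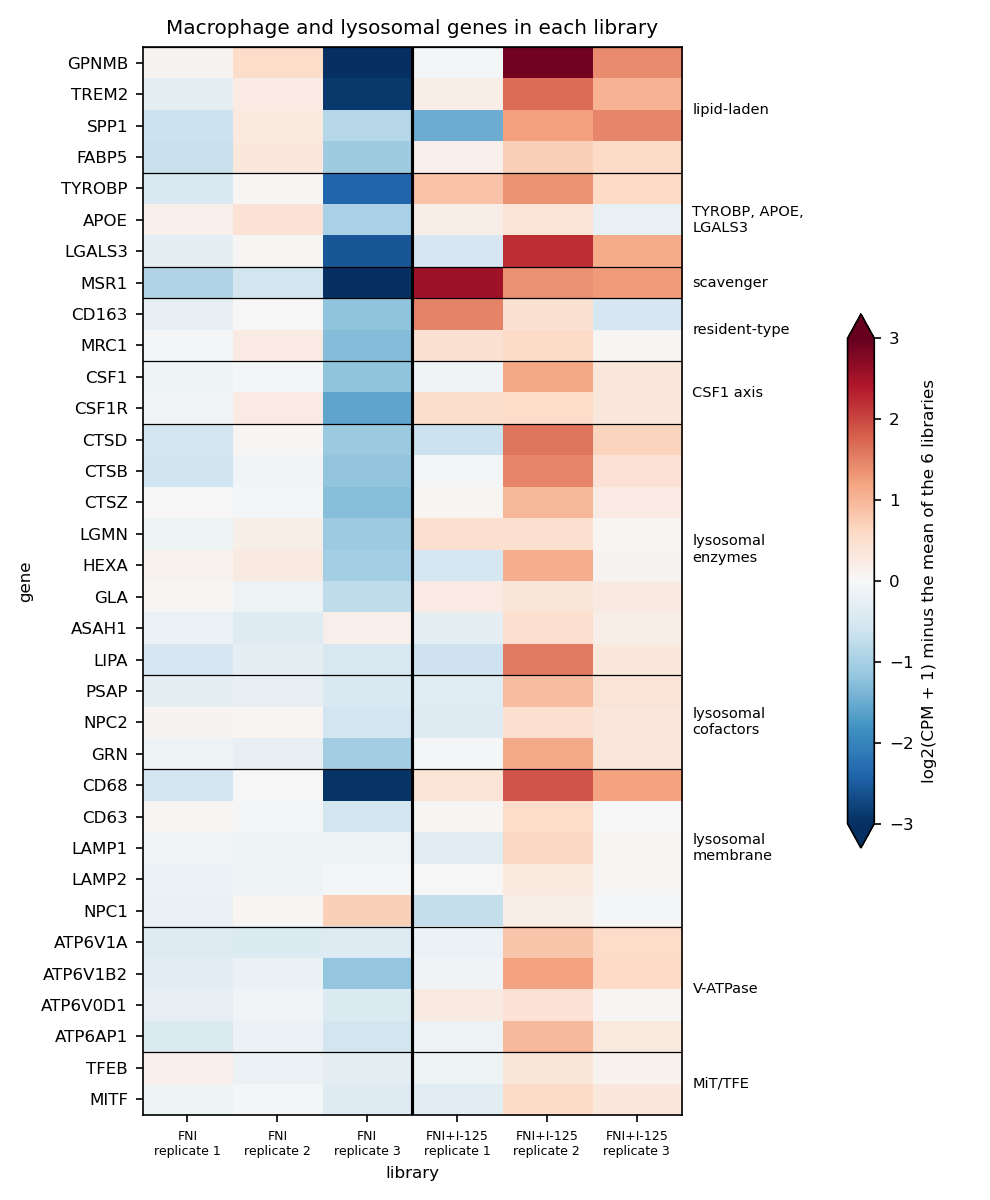
Heat map of the 34 genes tested, in rows ordered by role, across the 6 libraries in columns; colour gives log2(CPM + 1) minus the gene's mean over the 6 libraries, limited at 3 in either direction. FNI replicate 3 is the lowest column for 27 genes and FNI+I-125 replicate 2 the highest for 29.

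The 4 lipid-laden genes were each higher on average in the FNI+I-125 group, and each overlapped between the groups. GPNMB, a transmembrane glycoprotein of lysosome-rich macrophages, measured 571, 795 and 16.7 CPM in FNI replicates 1, 2 and 3, and 528, 3998 and 1450 CPM in FNI+I-125 replicates 1, 2 and 3. The groups overlapped, since FNI+I-125 replicate 1 was below FNI replicates 1 and 2, and FNI replicate 3 was far below the other 5 libraries. Its means were 461 ± 401 CPM and 1992 ± 1798 CPM (SD, n = 3 each). The FNI+I-125 over FNI log2 fold change was 2.11 (95% interval -1.15 to 5.37, unadjusted p = 0.164 in edgeR), and it was 1.07 without FNI+I-125 replicate 2 and 1.54 without FNI replicate 3.

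TREM2, a lipid-sensing receptor of macrophages, stood at 43.3, 62.3 and 6.26 CPM in the FNI group and 60.5, 171 and 109.8 CPM in the FNI+I-125 group. Here the only overlap was that FNI+I-125 replicate 1 lay slightly below FNI replicate 2. TREM2 had a log2 fold change of 1.61 (95% interval -0.39 to 3.6). SPP1, which encodes the secreted phosphoprotein osteopontin, gave 246, 469 and 214 CPM in the FNI group and 136, 901 and 1071 CPM with the seed. FNI+I-125 replicate 1 was thus the lowest of the 6 libraries and the other 2 libraries with a seed were the highest, and the log2 fold change was 1.18 (95% interval -0.65 to 3.02). FABP5, a fatty acid binding protein whose reads may be shared with processed copies, measured 75.3, 149 and 56.9 CPM against 133, 197 and 179 CPM. Again FNI+I-125 replicate 1 lay below FNI replicate 2 and nowhere else did the groups cross, and the log2 fold change was 0.85 (95% interval -0.091 to 1.8). None of the 4 reached an unadjusted p under 0.05, their exact permutation p ran from 0.2 to 0.4, and their median log2 fold change was 1.4.

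Of the genes that work with them, TYROBP was the one past the unadjusted threshold. TYROBP, the signalling adaptor of TREM2, measured 65.7, 93.4 and 16.6 CPM in FNI replicates 1, 2 and 3, and 164, 233 and 137 CPM in FNI+I-125 replicates 1, 2 and 3. All 3 libraries with a seed lay above all 3 without, and the log2 fold change was 1.6 (SE 0.61, unadjusted p = 0.039, adjusted p = 0.286 in edgeR). LGALS3, a galectin recruited to damaged lysosomes, gave 289, 359.6 and 58.4 CPM against 247, 1618 and 753 CPM. FNI+I-125 replicate 1 lay within the FNI range and FNI+I-125 replicate 2 far above it. LGALS3 had a log2 fold change of 1.89 (95% interval -0.28 to 4.06), and 1.05 without FNI+I-125 replicate 2. APOE, the main lipid carrier made by macrophages, was 444, 537 and 202 CPM in the FNI group and 457, 532 and 340.1 CPM in the FNI+I-125 group. The highest library was FNI replicate 2. The log2 fold change of APOE was 0.17 (95% interval -0.77 to 1.11), and it turned to -0.16 without FNI replicate 3 and to -0.011 without FNI+I-125 replicate 2.

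MSR1 had the largest fold change of the 34 genes. This scavenger receptor, which binds modified lipoproteins and debris, measured 11.1, 14.6 and 0.709 CPM in the FNI group and 130.4, 57.9 and 54.2 CPM in the FNI+I-125 group. Every library with a seed was several times above every library without, and the highest was FNI+I-125 replicate 1, not replicate 2 as for most of the genes. That library also had the highest neutrophil sum, 1737 CPM, whose part in the result was not tested. The group means were 8.82 ± 7.23 CPM and 80.8 ± 43.0 CPM (SD, n = 3 each). For MSR1 the log2 fold change was 3.2 (95% interval 0.75 to 5.64, adjusted p = 0.28 in edgeR and 0.0136 in DESeq2), a 9.17-fold difference, and it stayed between 2.63 and 3.77 when any 1 library was left out.

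The resident-type receptors were higher on average, with overlap. CD163, the haemoglobin-haptoglobin receptor, gave 60.1, 71.9 and 30.1 CPM in the FNI group and 200.3, 98.0 and 49.8 CPM in the FNI+I-125 group. FNI+I-125 replicate 3 was below 2 of the FNI libraries, and FNI+I-125 replicate 1 stood far above the rest. CD163 had a log2 fold change of 1.1 (95% interval -0.28 to 2.49), and 0.45 without FNI+I-125 replicate 1. MRC1, the mannose receptor, measured 115, 140 and 47.2 CPM against 161, 176 and 119.8 CPM. FNI+I-125 replicate 3 lay between FNI replicates 1 and 2, and the log2 fold change was 0.59 (95% interval -0.4 to 1.59), or 0.24 without FNI replicate 3.

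The growth factor CSF1 and its receptor CSF1R maintain macrophages. CSF1 was 97.6, 102 and 45.8 CPM in the FNI group and 99.2, 239.5 and 136 CPM with the seed, so FNI+I-125 replicate 1 lay within the FNI range. Its log2 fold change was 0.95 (95% interval -0.12 to 2.02), and 0.49 without FNI+I-125 replicate 2. CSF1R measured 219, 276 and 77.2 CPM against 336, 345 and 297 CPM. The 3 libraries with a seed were close to each other and all above the FNI libraries, and the log2 fold change was 0.77 (95% interval -0.32 to 1.87, unadjusted p = 0.133 in edgeR), and 0.38 without FNI replicate 3.

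**Figure D2:**
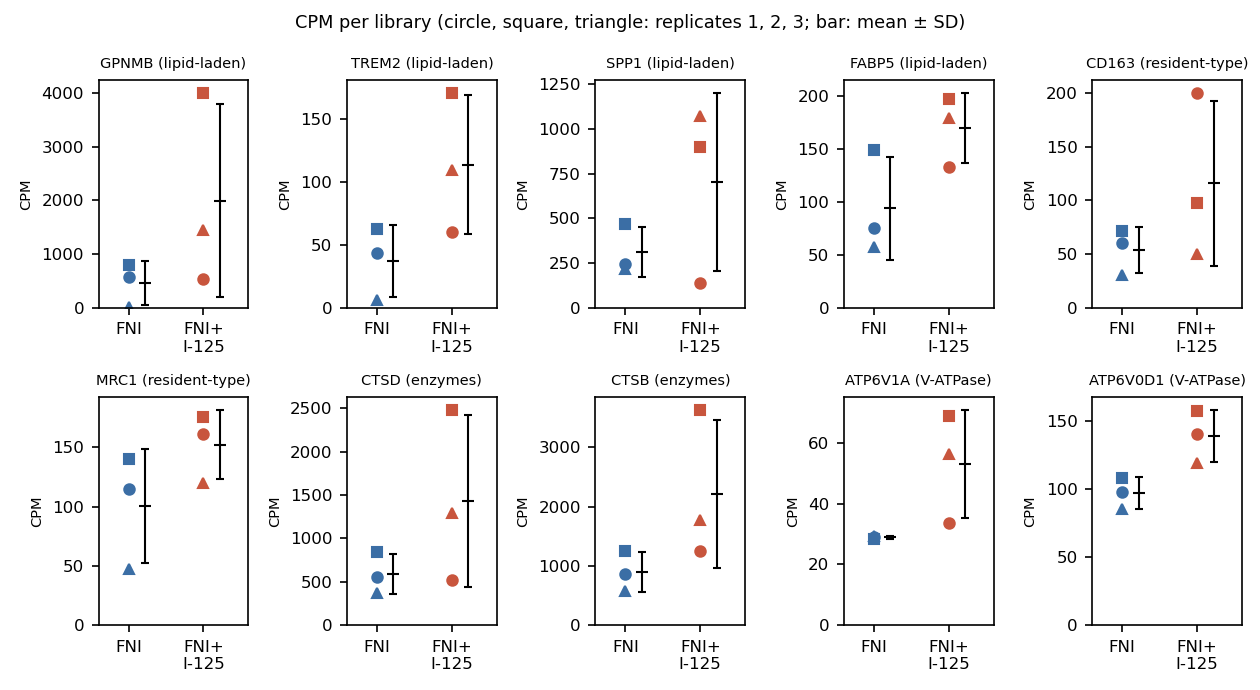
Level in CPM of 10 genes in each library, FNI and FNI+I-125 side by side, 1 panel per gene with its own linear axis; circle, square and triangle are replicates 1, 2 and 3 and the bar is the mean ± SD of 3 libraries. For GPNMB the FNI+I-125 values spread from 528 to 3998 CPM, while for ATP6V1A the FNI values lie between 28.5 and 29.3 CPM.

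All 8 lysosomal enzymes tested were higher on average, with a median log2 fold change of 0.72 and a range of 0.29 to 1.31. CTSB, a cysteine protease, had the largest difference and was the only enzyme at an unadjusted p under 0.05. It measured 863, 1245 and 579.7 CPM in the FNI group and 1248, 3627 and 1771 CPM with the seed. The groups lay apart by a narrow margin, since FNI+I-125 replicate 1 was almost equal to FNI replicate 2. The log2 fold change of CTSB was 1.31 (SE 0.49, unadjusted p = 0.0372, adjusted p = 0.283 in edgeR), and 0.72 without FNI+I-125 replicate 2. CTSD, the main aspartic protease, had 375 to 838 CPM in the FNI group and 518 to 2481 CPM with the seed. Its log2 fold change was 1.28 (95% interval -0.2 to 2.76), and 0.59 without FNI+I-125 replicate 2. LIPA, the acid lipase that frees cholesterol and fatty acids, stayed within 99.5 to 116 CPM in the FNI group but ran from 92.4 to 419 CPM with the seed. LIPA had a log2 fold change of 1.12, and 0.31 without FNI+I-125 replicate 2.

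CTSZ and GLA also had groups that lay apart. CTSZ, a carboxypeptidase, had 82.0 to 204 CPM in the FNI group and 209 to 405 CPM with the seed, and a log2 fold change of 0.83 (SE 0.42). GLA, alpha-galactosidase A, had 7.15 to 13 CPM in the FNI group and 15.2 to 16.7 CPM with the seed, and a log2 fold change of 0.59 (SE 0.25). The groups overlapped for the protease LGMN, with a log2 fold change of 0.62, and for HEXA, the alpha chain of beta-hexosaminidase, with 0.48. HEXA turned to -0.12 without FNI+I-125 replicate 2. The smallest difference was that of acid ceramidase, ASAH1, at 109, 93.5 and 137 CPM in the FNI group and 100.4, 174 and 139 CPM with the seed. Its groups overlapped, with a log2 fold change of 0.29 (95% interval -0.31 to 0.89).

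Among the cofactors of lysosomal digestion, GRN was past the unadjusted threshold. GRN, the progranulin gene whose product is needed for normal lysosome function, measured 341, 318 and 182 CPM in the FNI group and 371, 837 and 479.8 CPM with the seed. The groups did not overlap, with FNI+I-125 replicate 1 just above FNI replicate 1. GRN had a log2 fold change of 1.0 (SE 0.39, unadjusted p = 0.0408, adjusted p = 0.286 in edgeR), and 0.57 without FNI+I-125 replicate 2. PSAP, the precursor of the saposins, ran from 1104 to 1267 CPM in the FNI group and from 1179 to 2883 CPM with the seed, and its log2 fold change was 0.74 (95% interval -0.1 to 1.59). NPC2, a cholesterol-binding protein of the lysosome, gave 113, 110.2 and 71.5 CPM against 81.2, 148 and 134 CPM. FNI+I-125 replicate 1 was the second lowest of the 6 libraries, and the log2 fold change was 0.3 (95% interval -0.4 to 1.01).

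The lysosomal membrane genes differed by unequal amounts. CD68, a glycoprotein of macrophage endosomes and lysosomes, measured 91.2, 133 and 16.5 CPM in the FNI group and 179, 497 and 309 CPM with the seed. The groups did not overlap, and the log2 fold change was 2.03 (SE 0.78, unadjusted p = 0.04, adjusted p = 0.286 in edgeR), between 1.54 and 2.61 when any 1 library was left out. The more widely expressed membrane proteins differed less. LAMP2 lay apart, with 150 to 165 CPM against 173 to 210.2 CPM and a log2 fold change of 0.24 (SE 0.13), while CD63 with 0.38 and LAMP1 with 0.28 overlapped. LAMP1 turned to -0.039 without FNI+I-125 replicate 2.

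NPC1, the membrane transporter that passes on cholesterol from NPC2, was the only gene of the 34 that was lower on average in the FNI+I-125 group. It gave 97.0, 116 and 185 CPM in the FNI group and 67.6, 129.7 and 108 CPM in the FNI+I-125 group. FNI replicate 3, the lowest library for most of the genes, was here the highest. The groups overlapped and the log2 fold change was -0.38 (95% interval -1.2 to 0.44, unadjusted p = 0.297 in edgeR), and -0.08 without FNI replicate 3.

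All 4 V-ATPase genes were higher at an unadjusted p under 0.05, a threshold that 9.23% of all genes passed in that direction. The count was 0 of 4 without FNI+I-125 replicate 2, 1 without FNI replicate 3, 2 without FNI replicate 1 or FNI+I-125 replicate 3, and 3 without FNI replicate 2. With 1 library left out, 6.0% to 8.2% of all genes passed it. ATP6V1A, the catalytic subunit of the cytosolic part, measured 28.9, 28.5 and 29.3 CPM in the FNI group and 33.7, 68.9 and 56.3 CPM in the FNI+I-125 group. The FNI libraries were nearly equal, FNI replicate 3 included, and all 3 libraries with a seed lay above them. ATP6V1A had a log2 fold change of 0.87 (SE 0.26, unadjusted p = 0.0162, adjusted p = 0.28 in edgeR). ATP6V0D1, a subunit of the membrane part, was 97.5, 108 and 85.2 CPM against 139.9, 157 and 119 CPM. Both groups were narrow and did not overlap, and the log2 fold change was 0.52 (SE 0.16, unadjusted p = 0.0157), between 0.40 and 0.61 when any 1 library was left out.

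ATP6V1B2, the second nucleotide-binding subunit, had the largest difference of the pump genes. It gave 117, 129.8 and 65.9 CPM in the FNI group and 137, 342 and 223 CPM in the FNI+I-125 group. FNI+I-125 replicate 1 was just above the highest FNI library, and the log2 fold change was 1.17 (SE 0.41, unadjusted p = 0.0287 in edgeR). ATP6AP1, an accessory subunit, gave 148, 177 and 137 CPM against 181, 396 and 247 CPM. Its groups lay apart with a small gap above FNI replicate 2, and the log2 fold change was 0.83 (SE 0.31, unadjusted p = 0.034 in edgeR). The median log2 fold change of the 4 genes was 0.85, and 0.44 without FNI replicate 3 and FNI+I-125 replicate 2.

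TFEB and MITF, transcription factors of the family that drives lysosomal genes, differed little. TFEB was 32.1, 25.3 and 23.3 CPM in the FNI group and 25.8, 37.2 and 30.9 CPM in the FNI+I-125 group, with overlap and a log2 fold change of 0.22 (95% interval -0.26 to 0.7). MITF was 29.0, 31.6 and 24.6 CPM against 25.9, 48.3 and 40.6 CPM. FNI+I-125 replicate 1 lay within the FNI range, and the log2 fold change was 0.43 (95% interval -0.18 to 1.04). Factor activity is set largely by protein phosphorylation and location, which RNA levels do not measure.

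**Figure D3:**
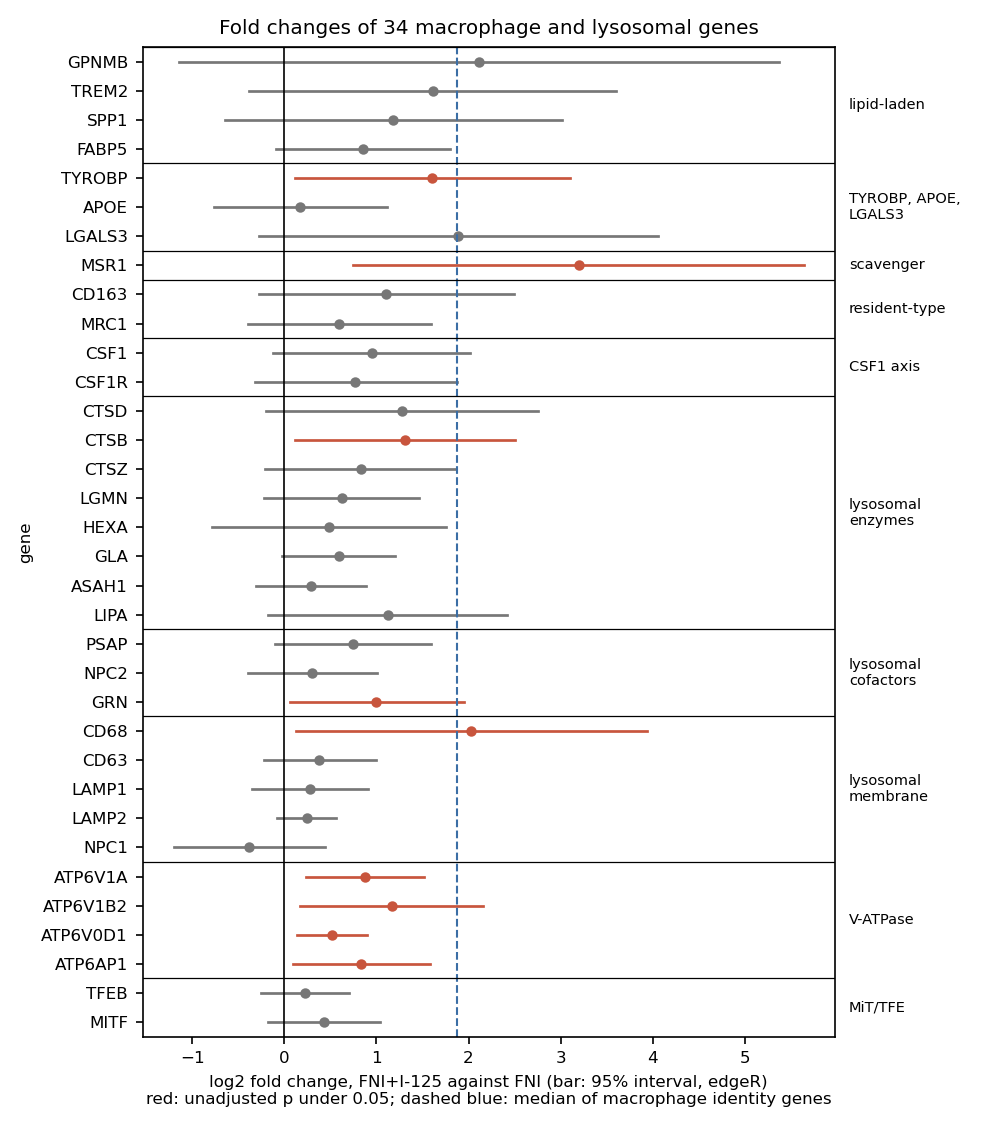
Log2 fold change of FNI+I-125 over FNI for each of the 34 genes with its 95% interval from edgeR, ordered by role; red marks an unadjusted p under 0.05 and the dashed blue line is the median of the macrophage list, 1.88. Of the 34 points, 33 lie above 0, and the intervals of 9 exclude 0.

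The groups of genes were then compared with each other. For each group the mean of log2(CPM + 1) was taken in each library and set to 0 over the 6 libraries, so that differences between libraries, not levels of genes, were compared. The lipid-laden genes differed between the group means by 1.64, the resident-type receptors by 0.83, the V-ATPase genes by 0.8 and the lysosomal enzymes by 0.75. Lipid-laden genes minus lysosomal enzymes gave -0.15, 0.4 and -1.59 in the FNI group and -0.12, 0.61 and 0.85 in the FNI+I-125 group, an overlap. The difference of lipid-laden genes minus resident-type receptors was -0.25, 0.21 and -1.18 in the FNI group, and -1.26, 1.11 and 1.37 in the FNI+I-125 group. The values overlapped fully, as FNI+I-125 replicate 1 was the lowest of all libraries and replicates 2 and 3 the highest. Lysosomal enzymes minus resident-type receptors differed by -0.083 between the groups, with overlap. In none of these comparisons of the 3 groups of genes did the FNI and FNI+I-125 libraries lie apart. The libraries with a seed also differed among themselves in this balance. FNI+I-125 replicate 1 was highest of the 6 for the resident-type receptors (0.97 above their mean) and below the mean for the lipid-laden genes (-0.3), and FNI+I-125 replicate 3 was the opposite, at -0.24 and 1.13.

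The genes were also set against the macrophage list, by subtracting its mean in each library. Since that list was higher in the FNI+I-125 group, nearly all genes tested are lower on this scale, 98.0% by their mean and 85.2% without overlap. Lysosomal enzymes minus macrophage genes gave 0.41, -0.026 and 1.21 in the FNI group and -1.12, -0.18 and -0.3 in the FNI+I-125 group, without overlap. The same held for V-ATPase genes, which differed by -1.02, and for resident-type receptors, by -0.98. The lipid-laden genes differed by -0.18 with overlap, but not in 1 direction. GPNMB differed by 1.04 and TREM2 by 0.13, while SPP1 differed by -1.01 and FABP5 by -0.87, each with overlap. Gene by gene, 17 of the 34 lay lower relative to the macrophage list in every FNI+I-125 library, and 28 had a lower mean. Both counts are smaller shares than those over all genes. MSR1 was the only one of the 34 that lay higher relative to the macrophage list in every library with a seed, by 1.64 on average. Over all genes tested 0.143% lay higher in this way.

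**Figure D4:**
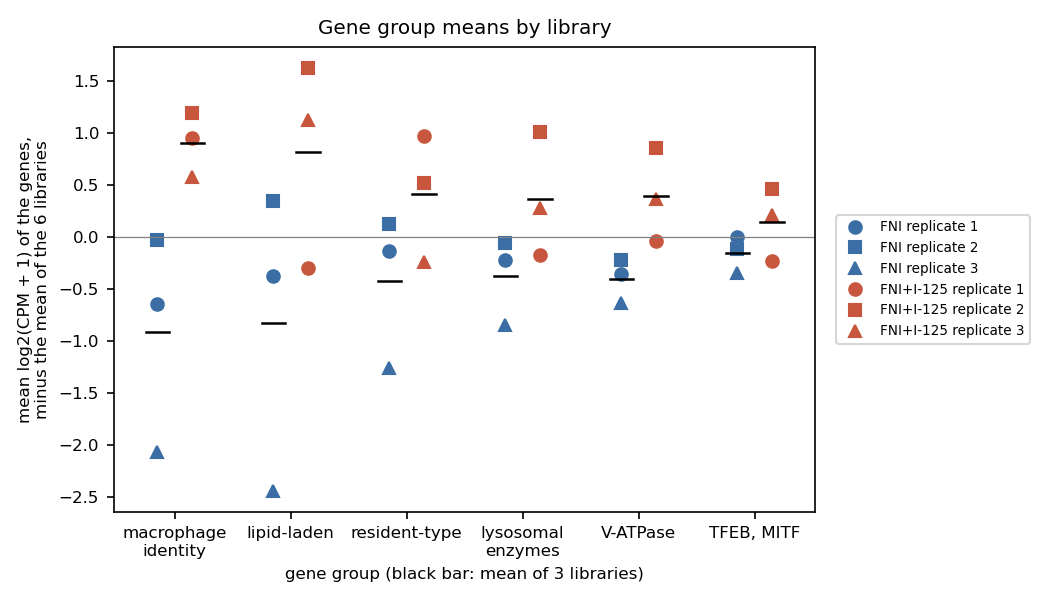
Mean log2(CPM + 1) of 6 groups of genes in each library, set to 0 over the 6 libraries, blue for FNI and red for FNI+I-125, with circle, square and triangle for replicates 1, 2 and 3 and a black bar for the mean of 3 libraries. The lipid-laden genes range from -2.43 in FNI replicate 3 to 1.63 in FNI+I-125 replicate 2, and the lysosomal enzymes range from -0.85 to 1.01 in the same libraries.

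The rest of the pathway was described with 8 lists holding 139 further genes, of which 124 were tested. Of these, 100 were higher and 24 lower on average with the seed. Their median log2 fold change was 0.37, and 35 were higher and 5 lower at an unadjusted p under 0.05, where 9.23% of all genes were higher and 7.73% lower. None passed the adjusted p in edgeR, while DESeq2 called 17 higher and 1 lower, LAPTM4B, beside 3.83% of all genes that it called higher and 2.84% lower. Groups lay apart upwards in 47 and downwards in 9, beside 14.8% and 12.3% of all genes.

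Of 32 other lysosomal enzymes, 6 were higher and 1 lower at an unadjusted p under 0.05, with a median log2 fold change of 0.48. GLB1, lysosomal beta-galactosidase, measured 125, 125 and 112 CPM in the FNI group and 163, 295 and 221 CPM in the FNI+I-125 group. Its groups lay well apart, and its log2 fold change was 0.91 (SE 0.23). The cysteine protease CTSO was lower, with a log2 fold change of -0.42 (SE 0.15). Of 9 genes that sort enzymes to the lysosome, 4 were higher and 0 lower by the same threshold. Both receptors for mannose 6-phosphate were among them. IGF2R was 145, 182 and 84.1 CPM against 254, 427 and 342 CPM, without overlap, with a log2 fold change of 1.32 (SE 0.34), and M6PR had 0.58 (SE 0.16).

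Other lysosomal membrane genes lay in both directions, with 5 of 15 higher and 2 lower at an unadjusted p under 0.05 and a median of 0.071. TMEM192, a lysosomal membrane protein, had a log2 fold change of 0.85 (SE 0.21), and SLC11A1, the metal transporter of phagosomes, had 2.68 (SE 0.75). SLC11A1 rested partly on FNI+I-125 replicate 1, with 35.5 CPM against 4.63 and 11.8 CPM in replicates 2 and 3 and 2.14 to 3.22 CPM in the FNI group. The cystine exporter CTNS was lower, at -1.09 (SE 0.38), as was LAPTM4B, at -0.85 (SE 0.25). Of 14 further V-ATPase genes, 6 were higher and 0 lower, with a median of 0.43. The smallest p-values were those of ATP6V1C1 with 0.87 (SE 0.26) and for ATP6V0C, the proton-carrying ring subunit, with 1.08 (SE 0.34).

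Among 16 genes that act with TFEB and MITF, 2 were higher at an unadjusted p under 0.05, TFEC and LAMTOR3, a share close to the 9.23% of all genes, and the median log2 fold change of the 16 was 0.21. TFEC, the family member found mainly in myeloid cells, measured 6.09, 10.8 and 1.65 CPM in the FNI group and 33.6, 27.6 and 22.1 CPM in the FNI+I-125 group. All libraries with a seed lay above all without, and the log2 fold change was 2.17 (SE 0.64, adjusted p = 0.0206 in DESeq2). LAMTOR3, part of the scaffold that brings mTORC1 to the lysosome, had 0.42 (SE 0.15).

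Of 16 other genes of lipid-laden macrophages, 8 were higher and 1 lower at an unadjusted p under 0.05, with a median of 0.76. PLIN2, which coats lipid droplets, gave 50.4, 52.8 and 42.6 CPM in the FNI group and 115, 88.9 and 96.0 CPM in the FNI+I-125 group. Both groups were narrow and lay far apart, with a log2 fold change of 1.04 (SE 0.15, unadjusted p = 0.000458 in edgeR, adjusted p = 6.9e-06 in DESeq2). OLR1, a receptor for oxidized lipoprotein, stood at 0.296 to 0.945 CPM in the FNI group and 3.65 to 7.84 CPM with the seed, and its log2 fold change was 3.22 (SE 0.55). NR1H3, the liver X receptor alpha that drives cholesterol export, was lower, at -0.67 (SE 0.26).

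Of 9 other genes of resident macrophages tested, all 9 were higher on average. All 9 also had their lowest level in FNI replicate 3, which was so for 31.6% of all genes. Only 1 was higher at an unadjusted p under 0.05, a share close to the 9.23% of all genes. Of 13 genes of phagocytic uptake, 3 were higher and 1 lower by that threshold. ITGB2, the beta chain of leukocyte integrins including complement receptor 3, was 124, 163 and 26.5 CPM in the FNI group and 419, 812 and 426 CPM in the FNI+I-125 group. Its groups lay far apart, with a log2 fold change of 2.4 (SE 0.69). Neutrophils carry ITGB2 as well, and their part in this difference was not tested. ITGB3, an integrin chain that takes part in uptake of dying cells, had 1.32 (SE 0.28). PROS1, which bridges dying cells to the TAM receptors, was lower, at -0.87 (SE 0.26).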

How the data were processed

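Poly(A) RNA of 6 facial nerves was sequenced on an Illumina platform. Reads were processed by the authors with HISAT2 and the build OryCun2.0, as their processing notes name them. The counting program, annotation, strand setting and versions are not given in the sources used here. The authors deposited raw counts per gene for each library, which were used without change. Symbols for LOC numbers came from the RefSeq gene table of mOryCun1.1 (542 of 2992), and no coordinates are given. Rows named by a spreadsheet date (25, with 0.188% of counts) were kept.

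FNI+I-125 was compared with FNI over all 14003 genes that passed filterByExpr (minimum count 10) with edgeR 4.0.16 in R 4.3.3 (TMM, quasi-likelihood test, two-sided, Benjamini-Hochberg adjustment), and with DESeq2 1.42.0 and limma 3.58.1 as alternatives. The script was tested on simulated counts with 200 changed genes. By the DEG rule edgeR recovered 197 of them with 12 wrong calls, and DESeq2 recovered 197 with 29 wrong calls. SEs and 95% intervals came from the quasi-likelihood fit. An exact permutation test on log2(CPM + 1) was used for single genes. With 3 libraries per group, p-values set the difference between groups against the spread within groups, as estimated from these 6 animals only.

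The members and lists were chosen with earlier results of these data known. Values in every library are given for the lipid-laden genes, resident-type receptors, CSF1, CSF1R, TFEB, MITF, each member at an unadjusted p under 0.05 and the largest and smallest fold change of each other role. Of each further list, the 2 genes of smallest p in each direction past that threshold are named, and of the macrophage list the 3 most abundant. Some genes that this rule names are not reported here. ADGRE1 was added after its values were seen. Counts per gene do not separate near-identical copies.

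Alternatives were another normalization (library size, upper quartile), no or a stricter count filter, library sizes without muscle and gland genes, a second quasi-likelihood setting, a replicate block and each library left out.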

Additional observations from a re-analysis of the deposited data

How the results depend on the processing

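Over 16 alternatives, 534 of 544 fold changes of the 34 genes kept their direction, and the others came from 6 genes. With 1 library left out, APOE ran from -0.16 (without FNI replicate 3) to 0.45 and was -0.011 without FNI+I-125 replicate 2. Without the latter HEXA was -0.12 (up to 0.78 otherwise) and LAMP1 -0.039 (up to 0.48). Without FNI replicate 3 and FNI+I-125 replicate 2 together, a choice made after seeing the data, APOE was -0.33, HEXA -0.43, NPC2 -0.078, CD63 -0.0086, LAMP1 -0.056 and TFEB -0.045. With 1 library left out, NPC2 ran from 0.1 to 0.52, CD63 from 0.15 to 0.49 and TFEB from 0.049 to 0.36. The cause was not tested.

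DESeq2 called 1 of the 34 a DEG (MSR1), beside 399 of all 14003 genes tested. Every other alternative called 0 of the 34. DESeq2 put 17 of the 34 at an unadjusted p under 0.05 in place of 9. That count ran from 1 to 14 when 1 library was left out, and was 3 without both libraries. The share of all genes higher at that threshold was 11.5% in DESeq2 and 9.23% in the main fit. It was 6.0% to 8.2% with 1 library left out and 6.09% without both. The number of genes whose groups lay apart upwards was 13, and 12 to 26 with 1 library left out, where fewer libraries make a separation easier. It was 9 with library size alone and 10 with upper-quartile normalization. Downwards it was 0, and 1 without both libraries. In the main fit 14.8% of all genes lay apart upwards and 12.3% downwards. The shares of all genes under the alternatives are not given here. The V-ATPase median was 0.85, 0.53 to 1.09 with 1 library left out, and 0.44 without both. The count of genes lower relative to the macrophage list was 17, beside 85.2% of all genes. It was 17 to 22 otherwise, where the share of all genes is not given here.

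Replicate numbers do not pair the animals. Same-numbered libraries correlated at 0.0519, -0.191 and -0.137 in their deviations from the group means, and 0 libraries were closest to their own number. With the replicate block, 13 of the 34 genes were higher at an unadjusted p under 0.05, beside 9.03% of all genes, and 0 were DEGs. Limits are the 3 animals per group, the spread between them (BCV, the biological coefficient of variation, 43%), and whole tissue of unequal cell content. At this depth, low counts kept only MARCO from being tested, and MSR1 had a count of 12 in FNI replicate 3.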
